A study of Mus musculus with 2 samples.

Results

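Amino acid transporter genes were described in mouse embryonic stem (ES) cells labelled as Ago1 knockout. The members were the protein-coding genes whose symbol begins Slc1a, Slc3a, Slc6a, Slc7a, Slc36a, Slc38a or Slc43a in GENCODE release M21, and the rule took 64 of 55421 genes in the count table. All samples were E14 ES cells of 129/Ola background with an Ago1 knockout, a line derived from blastocysts, grown on gelatin with serum, leukaemia inhibitory factor, 2-mercaptoethanol and antibiotics. Polyadenylated RNA was sequenced in 2 libraries, called KO1 and KO2, and no control group was used here. The labels do not say whether the libraries came from separate clones or cultures, and any spread between them can be technical.

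Cells cannot make the essential amino acids and take them up through membrane transporters of several unrelated families. Some carriers move sodium or protons with the amino acid and concentrate it, others exchange an internal amino acid for an external one, and the Slc7a exchangers work only when paired with an Slc3a heavy chain. In growing cells these transporters supply leucine and arginine, which activate mTORC1, and glutamine, serine and cystine, which feed nucleotide, one-carbon and glutathione synthesis. Mouse ES cells are known for their dependence on threonine and glutamine.

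Not every gene the rule takes encodes an amino acid transporter. Slc7a6os is named for its position opposite Slc7a6 and its product is no transporter. Slc3a1 and Slc3a2 encode heavy chains, which pair with Slc7a exchangers. Slc6a2, Slc6a3 and Slc6a4 carry noradrenaline, dopamine and serotonin, Slc6a8 carries creatine, and Slc43a3 carries purine nucleobases. All were kept, and Slc7a6os is given apart where it matters.

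The libraries held 57048330 and 54408708 counts, of which members took 0.357% and 0.374%. ES cell markers were detected in 8 of 8 cases, at mean levels from 175 to 1595 CPM (counts scaled to library size), where detected means at least 1 CPM in both libraries. Of 8 fibroblast markers 2 were detected, with Lum and Postn at 0 counts and a summed level of 25.5 CPM in KO1 and 30.5 in KO2. Of 8 neuronal and glial markers 3 were detected, at 3.08 CPM or less, with sums of 5.25 and 6.15 CPM and Aqp4 at 0 counts. Of 8 kidney and gut markers 2 were detected, mostly as Cubn, with sums of 72.2 and 66.8 CPM and Slc34a1, Fabp2 and Umod at 0 counts. Primitive endoderm markers were detected in 8 of 8 cases, with summed levels of 360 CPM in KO1 and 425 CPM in KO2. Most of this was Lamb1, Lama1 and Dab2, at means of 155, 135 and 56.0 CPM. Pdgfra, Gata4, Gata6, Sox7 and Sox17 were at means of 13.8, 13.3, 9.96, 7.30 and 2.70 CPM. The part of such cells in the transporter levels was not tested, and in bulk RNA fewer cells of a type and less RNA per cell cannot be told apart. Ago1, the knockout gene, had 1497 counts in KO1 but 452 in KO2, a log2 ratio of -1.67 (95% counting interval -1.83 to -1.52). The table does not tell whether these reads lay inside or outside the sequence altered in the knockout, whose kind the sample titles do not give.

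Of the 64 genes, 36 (56.3%) were detected, beside 55.3% of all 21976 protein-coding genes in the table. A further 25 had a count but lay under the threshold, and 3 had 0 counts in both libraries. Levels were compared between genes as RPKM, that is CPM per kb of merged exons. The median level of detected members was 3.20 ± 0.105 RPKM (SD, n = 2), beside 5.79 ± 0.323 RPKM over all detected protein-coding genes. Per longest transcript in place of merged exons these medians were 5.93 and 7.90. The summed level was concentrated in few genes, as 5 members held 64.4% ± 1.52 of the summed member RPKM and 11 members held 87.7% ± 0.344. The 5 include the heavy chain gene Slc3a2, at 84.8 RPKM. Across detected members the mean level ran from 0.105 RPKM for Slc7a11 to 116 RPKM for Slc38a4. Slc38a4 lay above 98.1% of the 17663 protein-coding genes with a count.

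**Figure D1:**
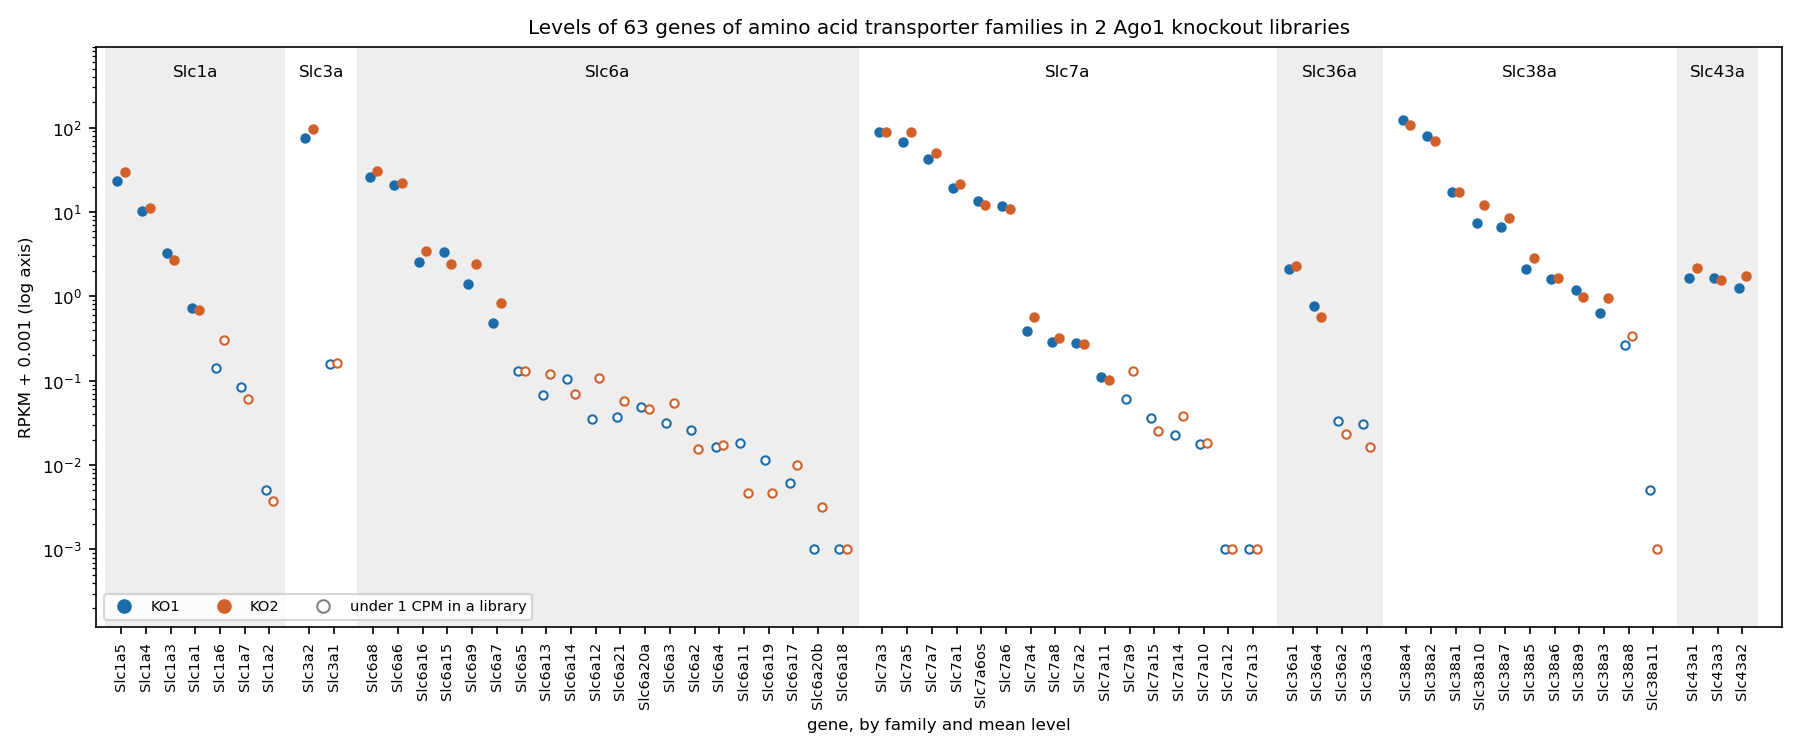
Level of 63 of the 64 genes in KO1 (blue) and KO2 (orange), as RPKM plus 0.001 on a log axis, grouped by family and ordered by mean level. Open circles mark genes under 1 CPM in a library; Slc38a4, Slc7a3, Slc3a2, Slc7a5 and Slc38a2 stand above the rest at 74.2 to 116 RPKM.

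By family, Slc7a held 37.5% ± 1.25 (SD, n = 2) of the summed member level and Slc38a 33.8% ± 3.70. In KO1 the shares of these families were 36.7% and 36.4%, and in KO2 38.4% and 31.1%. Slc7a was higher in both libraries, but in KO1 by less than the spread between the libraries. Without Slc7a6os the mean shares were 36.4% for Slc7a and 34.4% for Slc38a, and in KO1 Slc38a was then the higher. Slc3a, with 2 genes, held 12.3% ± 1.49, Slc6a 9.20% ± 0.503 and Slc1a 6.0% ± 0.433. Slc43a and Slc36a held 0.728% ± 0.0617 and 0.423% ± 0.0272. The number of genes did not follow the share, as Slc6a had the most members, 21, with 7 detected, while Slc38a had 9 of 11 and Slc7a 10 of 16 detected.

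**Figure D2:**
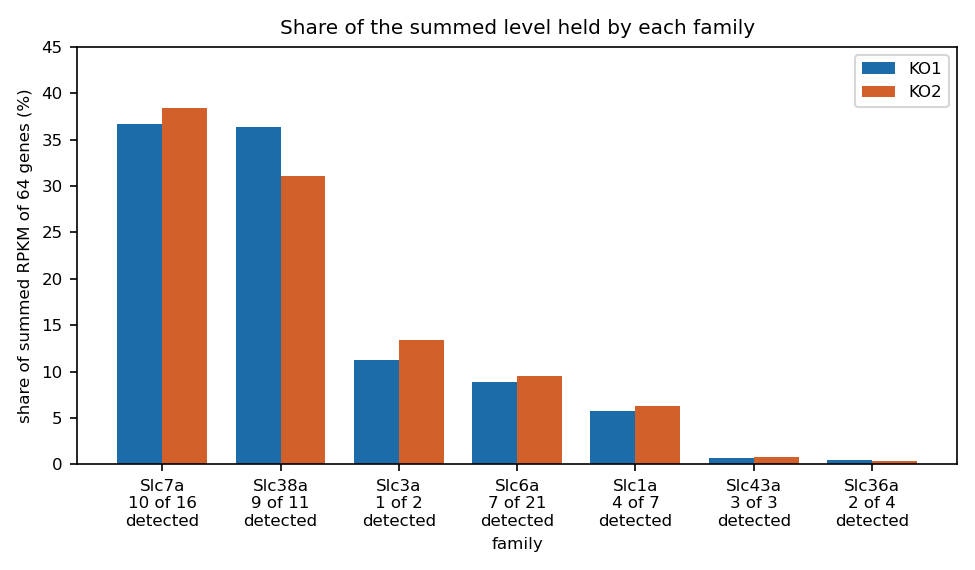
Share of the summed RPKM of the 64 genes held by each family in KO1 (blue bars) and KO2 (orange bars), with the number of detected members under each name. Slc7a and Slc38a together held most of the level, and Slc43a and Slc36a held under 1% each.

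By merged exons the Slc38a family supplied the gene with the highest level, Slc38a4. Per longest transcript Slc38a4 was at 134 RPKM in KO1 and 117 in KO2, Slc7a3 at 123 and 122, and Slc3a2 at 93.7 and 119. On that scale Slc38a4 was the highest in KO1 only, and its range overlapped that of Slc7a3. System A transporters bring in small neutral amino acids such as alanine and glutamine together with sodium. Slc38a4, an imprinted system A gene, was at 124 RPKM in KO1 and 108 RPKM in KO2 (116 ± 11, SD, n = 2). Slc38a2, the system A gene known to rise when amino acids run short, was at 80.0 and 68.4 RPKM (74.2 ± 8.20). Slc38a1, a glutamine carrier of the same system, was at 17.4 and 17.1 RPKM (17.3 ± 0.265). Slc38a4 was above Slc38a2, and Slc38a2 above Slc38a1, in both libraries without overlap. Slc38a4 held 55.9% ± 0.0543 of the summed level of the 3 system A genes by merged exons. Per longest transcript Slc38a4 was at 126 RPKM, Slc38a2 at 107 and Slc38a1 at 40.9. On that scale Slc38a4 held less than the other system A genes together. By counts, which are not scaled to length, Slc38a2 came first with 40182 and 33041 reads, against 29984 and 25214 for Slc38a4. Length bears on this order most for Slc38a1, whose merged exons span 17236 bases and whose longest transcript has 7266, and which was at 40.9 RPKM per longest transcript. Of 36 detected members, 11 rose by over 1.5 times on that scale, Slc38a1 the most of those at over 10 RPKM.

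These 3 genes lie next to each other on chromosome 15 of GRCm38, all on the minus strand, with no protein-coding gene between them. Slc38a1 spans chr15:96571418-96642913, Slc38a2 chr15:96687392-96699730 and Slc38a4 chr15:96994820-97055956. The gaps were 44478 and 295089 bases. Their outer neighbours had lower levels than Slc38a2 and Slc38a4. Scaf11, a splicing-related gene beside Slc38a1, was at 37.2 ± 4.34 RPKM (SD, n = 2), and Amigo2, an adhesion gene beside Slc38a4, at 1.63 ± 0.00709 RPKM. These neighbours were named for their position.

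**Figure D3:**
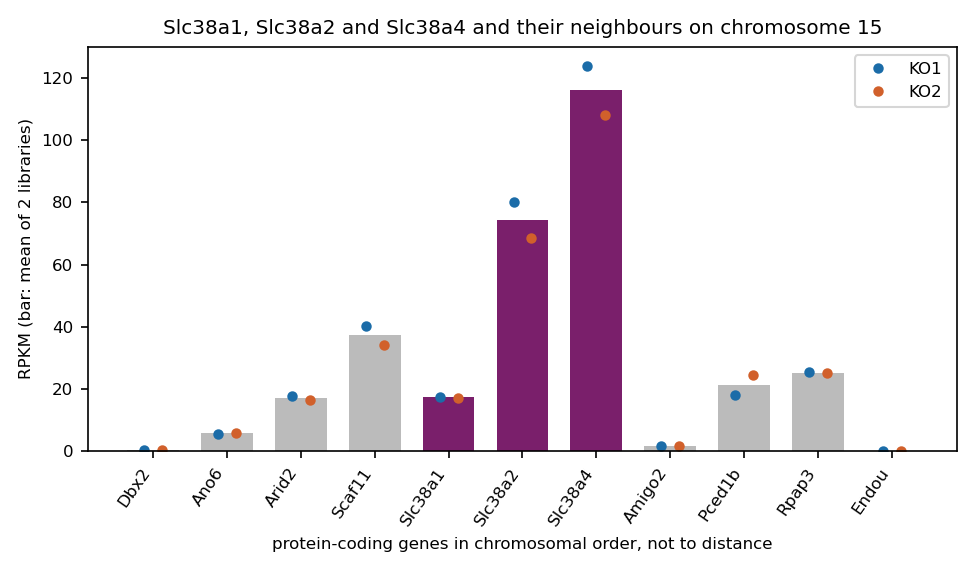
Levels of 11 consecutive protein-coding genes on chromosome 15 in chromosomal order, as mean RPKM (bars) and in KO1 (blue) and KO2 (orange). Slc38a2 and Slc38a4 (purple) stand above their neighbours, of which Scaf11 at 37.2 RPKM was the highest.

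Other Slc38a members were lower. Slc38a10 was at 7.46 RPKM in KO1 and 11.9 in KO2. Slc38a7, a lysosomal glutamine exporter, was at 6.63 and 8.45 RPKM. Slc38a9, the lysosomal arginine sensor of mTORC1, was at 1.17 and 0.970 RPKM. The glutamine and histidine carriers of system N, Slc38a5 and Slc38a3, were at 2.45 ± 0.515 and 0.795 ± 0.224 RPKM (SD, n = 2). Slc38a6 was at 1.62 ± 0.0381 RPKM, and this value is uncertain, because 82.7% of its longest transcript matched transcripts of other genes at 98% identity or more. Slc38a8 lay just under the detection threshold, at 0.915 and 1.17 CPM, and Slc38a11 had 1 count in KO1 and 0 in KO2.

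The cationic amino acid carriers of the Slc7a family take up arginine and lysine. Slc7a3 was at 89.2 RPKM in KO1 and 88.6 RPKM in KO2 (88.9 ± 0.402, SD, n = 2) and lies on chromosome X. The widely expressed Slc7a1 was at 19.1 and 21.2 RPKM (20.2 ± 1.43), with 32.4 RPKM per longest transcript. The ranges did not overlap, and Slc7a3 held 80.9% ± 1.22 of the summed level of the 5 genes grouped here with the cationic carriers. Slc7a2 and Slc7a4 were detected at 0.274 ± 0.00493 and 0.479 ± 0.126 RPKM, and Slc7a14 had 12 and 20 counts. For Slc7a4, 13.3% of the exons lie under P2rx6 on the opposite strand.

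The heavy chain gene Slc3a2 encodes CD98hc, which carries its light chains to the plasma membrane. Slc3a2 was at 74.7 RPKM in KO1 and 94.9 RPKM in KO2 (84.8 ± 14.3, SD, n = 2). Slc7a5, the light chain that takes up leucine and other large neutral amino acids, was at 66.6 and 89.3 RPKM (77.9 ± 16.0). The ranges of Slc3a2, Slc7a5 and Slc38a2 overlapped, and the values of Slc7a3 lay within the range of Slc3a2. Within each library, however, Slc3a2 was above Slc7a5, and Slc7a3 was above Slc38a2 without overlap. Slc7a7, a light chain that exports arginine and lysine in exchange for neutral amino acids and sodium, was at 41.9 and 49.2 RPKM (45.6 ± 5.21). Slc7a6, with the same kind of exchange, was at 11.7 and 10.8 RPKM, and its neighbour Slc7a6os at 13.4 and 12 RPKM. The light chains Slc7a8, for neutral amino acids, and Slc7a10, for small ones, were at 0.305 ± 0.0236 RPKM and at 2 counts in each library.

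The 6 light chain genes that pair with Slc3a2 summed to 121 RPKM in KO1 and 150 RPKM in KO2. Slc3a2 thus stood at 0.627 ± 0.00976 of their sum (SD, n = 2), with 0.620 in KO1 and 0.634 in KO2. Of that sum Slc7a5 made up 57.4% ± 3.10, Slc7a7 33.8% ± 1.31 and Slc7a6 8.46% ± 1.76. The levels are of RNA and do not show how many heteromers formed. The other heavy chain, Slc3a1, which pairs with Slc7a9 in kidney and gut to recover cystine, had 20 counts in each library. Slc7a9 had 9 and 19 counts, and Slc7a13 had 0 in both libraries. Of the Slc3a1 exons, 26.5% lie under Prepl on the opposite strand, so part of its few counts may belong to that gene.

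Slc7a11 encodes the cystine importer xCT, which exchanges glutamate for cystine and feeds glutathione synthesis. It was the lowest of the detected members per length, with 86 and 77 counts, or 0.109 and 0.101 RPKM. It made up 0.0789% ± 0.0160 of the light chain level (SD, n = 2). By CPM it lay just inside the threshold, at 1.51 and 1.41, with Slc7a8 next at 1.44 and 1.61. Just outside, Slc6a5 was at 0.933 CPM in both libraries.

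Promoter windows of RefSeq on GRCm38.p6, from 250 bases before to 50 after each start, were matched by symbol for 46 of the 64 genes. The windows of Slc7a11 and Slc7a7 are shown because they hold the CARE motif at a member of low and a member of high level, 0.105 and 45.6 RPKM. Those of Slc38a4, Slc38a2 and Slc7a1 are shown because they belong to members of high level and hold none. Slc3a2, at 84.8 RPKM, has a window without a match too and is not shown. The windows shown were chosen after their matches were seen. Each is printed from base -250 to base -11, on the minus strand, with CARE matches in capitals. The windows lie at chr3:50443624-50443863, chr14:54417955-54418194, chr15:97055967-97056206, chr15:96699739-96699978 and chr5:148399915-148400154, outside the annotated exons. Slc7a7, Slc38a4 and Slc7a1 have other starts, and the window farthest upstream is given.
Slc7a11: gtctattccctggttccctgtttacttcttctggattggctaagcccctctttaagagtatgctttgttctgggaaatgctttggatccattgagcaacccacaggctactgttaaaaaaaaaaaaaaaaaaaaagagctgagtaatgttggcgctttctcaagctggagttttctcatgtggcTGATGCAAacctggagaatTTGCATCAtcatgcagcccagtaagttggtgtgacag
Slc7a7: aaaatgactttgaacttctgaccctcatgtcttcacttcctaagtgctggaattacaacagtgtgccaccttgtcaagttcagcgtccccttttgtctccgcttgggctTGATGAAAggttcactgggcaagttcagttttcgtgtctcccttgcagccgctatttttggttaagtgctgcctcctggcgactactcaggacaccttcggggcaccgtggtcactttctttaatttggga
Slc38a4: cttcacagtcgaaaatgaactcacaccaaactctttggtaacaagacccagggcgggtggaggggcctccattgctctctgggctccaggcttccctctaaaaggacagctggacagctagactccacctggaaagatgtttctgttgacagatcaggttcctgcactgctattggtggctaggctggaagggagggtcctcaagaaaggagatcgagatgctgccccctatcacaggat
Slc38a2: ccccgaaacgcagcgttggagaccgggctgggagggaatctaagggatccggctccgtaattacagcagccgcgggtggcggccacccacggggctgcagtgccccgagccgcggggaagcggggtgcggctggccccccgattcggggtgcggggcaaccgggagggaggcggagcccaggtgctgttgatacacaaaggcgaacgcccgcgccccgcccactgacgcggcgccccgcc
Slc7a1: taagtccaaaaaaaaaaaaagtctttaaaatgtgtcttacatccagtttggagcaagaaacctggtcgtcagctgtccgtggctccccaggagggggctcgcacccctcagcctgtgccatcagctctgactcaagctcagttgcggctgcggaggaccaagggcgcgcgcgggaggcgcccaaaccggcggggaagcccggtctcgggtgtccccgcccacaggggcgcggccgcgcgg

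CARE is the composite C/EBP and ATF element to which ATF4 binds when amino acids are scarce, searched here as TGATGNAA on both strands. In Slc7a11 the matches TGATGCAA, from base -66 to -59, and TTGCATCA, from -47 to -40, have opposite orientations. The motif was in 5 of 67 windows of the members (7.46%) and in 3.97% of all 32851 windows. The members were Slc7a11, Slc7a7, Slc1a4 and Slc6a21. Overlapping windows of Slc7a7 share a match, so the 5 are not independent counts. In the Slc7a7 window printed the motif lay from -141 to -134 and, outside the stretch printed, across the start from -1 to 7. The bases checked after this Slc7a7 start were not found in its M21 transcripts, so the start rests on RefSeq. At Slc1a4 it lay across the start, from -4 to 4. A match is a description of the letters and not evidence of binding, and the windows leave out elements in introns.

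ATF4 itself and the listed genes of its programme were at higher levels than Slc7a11. So was every other detected member, as Slc7a11 was the lowest of these, and no contrast between the programme and the transporters follows. Of 14 genes of amino acid sensing and the ATF4 response, 13 were detected, with a median of 15.3 RPKM. Asns, the asparagine synthetase gene and an ATF4 target, was at 255 RPKM in KO1 and 227 in KO2, and Atf4 at 165 and 181 RPKM. The lowest of the list were Cebpb at 0.915 ± 0.582 RPKM (SD, n = 2), which was under the threshold in KO1, and Vldlr at 0.676 ± 0.0532 RPKM. CARE matches were found at 6 of the 14, among them Asns from base -23 to -16 and Trib3, after the start, from 15 to 22. The share of 3.97% given above is per window, and no share per gene was counted over all genes. The list was drawn up from genes tied to ATF4, so this count is no test of the motif. Asns and Slc7a11, both with a CARE match close to the start, had mean levels of 241 and 0.105 RPKM. These are 2 picked genes, and a relation of the motif to level was not tested.

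Other motifs were counted the same way. The E-box CACGTG, bound by Myc and USF factors, was in 9 of 67 member windows (13.4%) and 7.15% of all windows. The antioxidant response element, searched as TGACNNNGC, was in 11 of 67 (16.4%) and 12.4%. Windows of 1 gene can overlap, so these are not independent counts.

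Promoter CpG content, which is high at many widely expressed genes, was counted in the same windows. An observed over expected CpG ratio of at least 0.6 was found for 16 of 23 detected members (69.6%) and 9 of 23 under the threshold (39.1%). Over protein-coding genes with a window it was found for 74.4% of 9605 detected genes and 16.0% of 6909 under the threshold. Whether members differ from other genes in this was not tested. Slc38a2 had the highest ratio of the members, 1.03, with 41 CpG sites in its window. Slc38a4 had 5 CpG sites and a ratio of 0.238 in its farthest upstream window, while it had the highest level of the members per kb of merged exons.

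**Figure D4:**
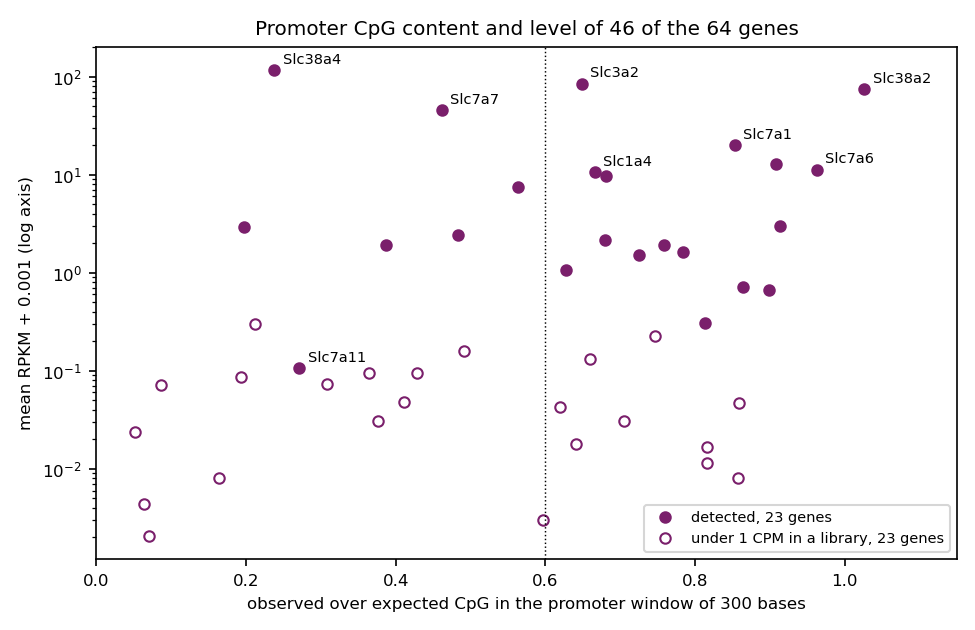
Mean RPKM plus 0.001 (log axis) against the observed over expected CpG ratio of the farthest upstream promoter window, for 46 of the 64 genes. Filled circles are detected genes and open circles genes under 1 CPM in a library; 16 of 23 filled and 9 of 23 open circles lie at 0.6 (dotted line) or above.

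In the Slc1a family the neutral exchangers led. Slc1a5, which exchanges glutamine, was at 23.4 RPKM in KO1 and 30.0 in KO2 (26.7 ± 4.68, SD, n = 2). Slc1a4, which carries serine and alanine, was at 10.2 and 11 RPKM. Slc1a5 held 71.3% ± 2.55 of the level of this pair. The glutamate carriers Slc1a3 and Slc1a1, best known in glia and neurons, were at 2.96 ± 0.375 and 0.709 ± 0.0219 RPKM. For Slc1a1, 31.9% of the exons lie under another gene on the opposite strand. Slc1a2, the main glutamate carrier of the brain, had 3 and 2 counts, Slc1a7 had 16 and 11, and Slc1a6 had 17 and 36.

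Of the Slc6a family, many of whose members move their substrate with sodium and chloride, 2 genes stood out. Slc6a8, the creatine carrier, on chromosome X, was at 26.0 and 30.9 RPKM (28.4 ± 3.44, SD, n = 2). Slc6a6, the taurine carrier, was at 20.6 and 22.2 RPKM (21.4 ± 1.17). Slc6a11, a carrier of the neurotransmitter GABA, had 5 and 1 counts. Slc6a15, for branched-chain amino acids and proline, was at 3.33 and 2.42 RPKM, and Slc6a16 at 2.53 and 3.44 RPKM. Slc6a9, a glycine carrier, was at 1.41 and 2.41 RPKM, with 30.2% of its exons under genes of the opposite strand. The proline carrier Slc6a7 was at 0.655 ± 0.254 RPKM.

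The other 14 Slc6a genes were under the threshold, led by the glycine carrier Slc6a5 with 53 and 51 counts. Each of the others had 20 counts or fewer per library. Of the monoamine carriers, Slc6a2 had 9 counts in KO1 and 5 in KO2, Slc6a3 had 6 and 10, and Slc6a4 had 4 in each. Of the kidney and gut carriers, Slc6a19 had 3 and 1 counts and Slc6a18 had 0 in both libraries. Slc6a20b was at 0 and 1 counts, and Slc6a20a, of which 9.68% matched that paralog at high identity, had 11 and 10. Their partner gene Cltrn, which carries Slc6a19 to the membrane in kidney, had 0 counts in both libraries. A count of 0 allows up to 3 counts, or 0.0528 CPM in KO1 and 0.0549 CPM in KO2. These limits cover counting error only.

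The Slc36a and Slc43a families were low. The proton-coupled Slc36a1, which exports small amino acids from lysosomes, was at 2.10 and 2.25 RPKM, and Slc36a4 at 0.767 and 0.571 RPKM. Slc36a2 and Slc36a3 lie beside Slc36a1 on chromosome 11. The counts were 6 and 4 for Slc36a2, and 4 and 2 for Slc36a3. The leucine carriers Slc43a1 and Slc43a2 were at 1.91 ± 0.388 and 1.5 ± 0.330 RPKM (SD, n = 2), and Slc43a3 at 1.60 ± 0.0553 RPKM. All 3 Slc43a genes were detected, but the family's summed level was 5.01 ± 0.662 RPKM, under that of Slc7a6 alone.

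Successive members on a chromosome formed 14 pairs with gaps of 500 kb or less. In 4 pairs other protein-coding genes lay between, and 1 pair was Slc7a6 with Slc7a6os. Both genes were detected in 5 pairs, 1 of them in 3 pairs and neither in 6. Mixed pairs included Slc36a2 with Slc36a1, and Slc6a16 with Slc6a21, the latter only 4145 bases apart on the same strand. Slc7a7 and Slc7a8, on chromosome 14, were both detected, at 45.6 and 0.305 RPKM. The genes without a count in either library were Slc6a18, Slc7a12 and Slc7a13.

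Genes around the transporters were read from lists of related function. Of 19 amino acid transporter genes outside the rule's families, 13 were detected, led by the mitochondrial carriers Slc25a13, for aspartate and glutamate, at 45.7 ± 2.76 RPKM (SD, n = 2), and Slc25a15, for ornithine, at 11.9 ± 0.637 RPKM. The lowest were the vesicular glutamate carriers Slc17a6, with 4 and 1 counts, and Slc17a8, with 0 and 1. Of 5 genes of accessory proteins 3 were detected, with Bsg, which carries monocarboxylate transporters to the membrane, at 136 ± 19.3 RPKM and Arl6ip5, which restrains the product of Slc1a1, at 29.1 ± 1.34 RPKM. All 12 genes of glutamine, glutamate, proline and glutathione synthesis were detected. Glud1 and Got1, which link glutamate to the citric acid cycle, were at 137 ± 8.87 and 87.3 ± 8.02 RPKM, and Pycr1 and Gss, for proline and glutathione, the lowest at 6.81 ± 0.552 and 6.02 ± 0.484 RPKM.

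KO2 was set against KO1 for each gene by dividing the scaled counts, with a 95% interval from the exact binomial distribution that covers counting error only. A gene with 50 or more counts in sum was called differing if its interval lay wholly outside 2-fold. Of 39 such members 0 differed, where 1.06% of all 15619 such genes did, 0.98% being higher in KO2 and 0.0768% lower. With a correction for the GC content of the longest transcript the member count was also 0, beside 0.25% of all genes, with 0.16% higher and 0.0897% lower. This is a rule of size between 2 libraries with no test between groups, and no p-value exists for it. At 1.5-fold, 2 of the 39 members differed, Slc6a9 and Slc38a10, both higher in KO2, beside 6.6% of all genes. With 10 or more counts in sum the member count at 2-fold was 0, beside 0.935% of all genes.

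Differences beyond counting error were about as common among the members as among all genes. A mean of 50 counts or more was reached by 38 members. Of these, 19 had an interval above no change and 9 below, beside 37.1% above and 34.1% below, over all genes with that mean. In all this was 73.7% of the members and 71.2% of all genes. After the GC correction it was 17 of the 38, beside 44.6% of all genes. These intervals cover counting error only. Slc38a10 had 2720 counts in KO1 and 4178 in KO2, a log2 ratio of 0.68 (95% interval 0.61 to 0.75). Slc6a9 had 412 and 678 counts, a log2 ratio of 0.77 (0.60 to 0.96). Slc6a15 had the lowest ratio of the 38, with 1466 and 1026 counts and a log2 ratio of -0.46 (-0.57 to -0.34). Slc3a2 and Slc7a5 were higher in KO2, at 0.34 (0.31 to 0.38) and 0.42 (0.39 to 0.46), and Slc38a2 and Slc38a4 lower, at -0.23 (-0.25 to -0.20) and -0.19 (-0.22 to -0.17).

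The order of these ratios followed base composition. Across the 38 members the Spearman correlation of the log2 ratio with transcript GC content was 0.891, and across 13932 genes it was 0.844, as a description over genes that share 2 libraries. Slc6a15 and Slc38a4 have a GC content of 42.3% and 43.4%, and Slc38a10 and Slc6a9 of 57.6% and 57.0%. After the GC correction the ratios of the 38 members ran from -0.28 to 0.28, against -0.46 to 0.81 before. Corrected log2 ratios were 0.09 for Slc38a10, 0.24 for Slc6a9, -0.17 for Slc6a15, 0.09 for Slc3a2, -0.06 for Slc7a5, -0.02 for Slc38a2 and 0.06 for Slc38a4. The sign thus changed for Slc7a5 and Slc38a4. Over the 48 members averaging 10 counts or more the median log2 ratio was 0.15, and 0.06 after correction, beside 0.01 and -0.02 over 18115 genes.

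**Figure D5:**
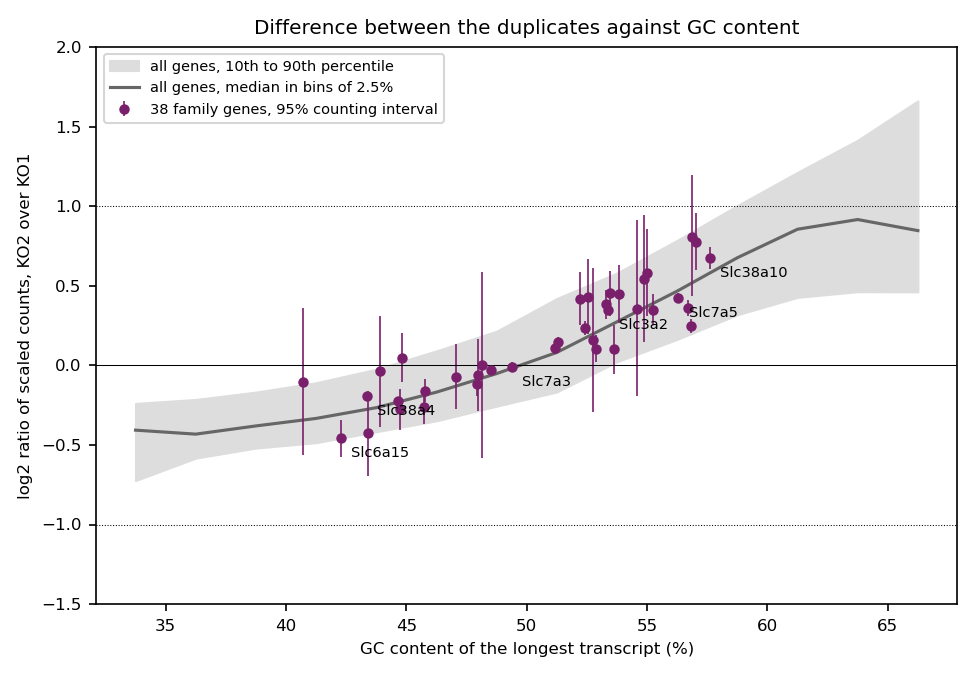
Log2 of KO2 over KO1 in scaled counts against the GC content of the longest transcript, for 38 members (purple, bars are 95% counting intervals) and all genes averaging 50 counts or more (grey line, median in bins of 2.5%; band, 10th to 90th percentile). The members lie along the line of all genes, and none has its whole interval beyond the dotted 2-fold lines.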

How the data were processed

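Polyadenylated RNA of 2 Ago1 knockout libraries was analysed. Read counts per Ensembl gene, whole numbers and not normalized, were deposited by the authors in 1 table, with build GRCm38 per the submitters' processing notes and a reverse-stranded protocol per the labels. The sources used here name no aligner, counter, strand setting or annotation release. Of 55421 identifiers, 55240 were found in GENCODE M21. Library depth was 57048330 and 54408708 counts.

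Counts were scaled with edgeR 4.0.16 in R 4.3.3 by trimmed mean of M values (TMM, factors 0.996 and 1.00) to CPM and, per kb of merged exons, to RPKM. The common biological coefficient of variation was 0.193. Ratios used a prior count of 0.5, and the GC correction a loess fit with span 0.3. With 1 group, no quasi-likelihood test was possible. Overlaps were made with bedtools 2.31.1, copies searched with blastn 2.17.0 (98% identity, 100 bases), and other steps run in python 3.11.15. Counts were also simulated with counting noise only and the GC trend fitted to these data. On them the uncorrected 2-fold rule recovered 86% of 200 genes changed 3-fold among 15637 and called 20 unchanged genes. The corrected rule recovered 90.5% and called 0. The spread between the real libraries goes beyond counting error, so these are not error rates for these data.

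Named were all detected members, those at the threshold, those at 0 counts, and the 2 highest and 2 lowest of each related list. Others were chosen after their values were seen. The values of 1 member and of 1 listed gene are not reported here. Members and lists were chosen with earlier results of these data known. Alternatives were DESeq2 1.42.0 size factors, plain library size, transcript length, other thresholds, each library alone and leaving out Slc7a6os, the last added after seeing the data.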

Additional observations from a re-analysis of the deposited data

How the results depend on the processing

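No paired analysis was possible because there was just 1 group. Without TMM, or with DESeq2 size factors (both equal to 1, which left the libraries unscaled), no count, share, median or level moved beyond its limit, the limit being 1 SD between the libraries for levels and shares and 1.5-fold for counts. Per longest transcript, the Slc6a, Slc36a and Slc43a shares were 9.76%, 0.338% and 0.838%, the 5 highest members held 60.0%, the median of detected members was 5.93 RPKM and Slc3a2 stood at 0.653 of its light chains. This follows from the shorter lengths. The highest member was then Slc38a4 in KO1 and Slc7a3 in KO2. Of 36 levels, 29 moved higher and 0 lower on that scale, and 11 moved by over 1.5 times. With each library alone, detected members numbered 36 to 37, their median was 2.81 to 3.27 RPKM, and the Slc3a1 ratio to its light chains was 1.24 to 2.62, on at most 20 counts a gene. The median moved from 3.20 to 2.81 RPKM without KO1, where 37 members passed the threshold in place of 36. Shares and ratios of a single library lie within 1 SD of the mean of both by construction, which is no measure of stability. Detected members were 38 at 0.5 CPM, 28 at 5 CPM and 35 without Slc7a6os. The count of differing members was 2 at 1.5-fold, beside 6.6% of all genes, and 0 when 10 counts in sum sufficed, beside 0.935%. The median log2 ratio lay between 0.06 and 0.16 in all settings run. Levels of the members under the threshold rest on 64 counts or fewer per library, and the effect of depth was not tested.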
